A study of Homo sapiens with 6 samples.

Results

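The genes described here encode the core machinery of autophagy and its cargo receptors, a list of 42 human genes of which 41 could be read, among 22375 genes tested in all. A member was read where the platform annotation paired a row of the deposited table with its symbol and no other. VMP1, which encodes a membrane protein of the endoplasmic reticulum needed for autophagosome formation, shared its row with a microRNA gene and is not reported. Each of the other members had 1 row. The cells were H1299, an established line of human non-small cell lung cancer. The first group of 3 arrays came from parental H1299 cells kept for 14 days with 500 nM PD 0332991 dissolved in DMSO. The second group of 3 arrays came from parental H1299 cells kept for 14 days with DMSO, the vehicle that both groups received. PD 0332991 (palbociclib) inhibits the kinases CDK4 and CDK6, which phosphorylate the retinoblastoma protein pRB, and the study's title names the reactivation of pRB as the purpose of the drug. All cells were of 1 line, and the labels do not say whether the arrays of a group came from separate cultures, so the spread behind each p-value may be technical.

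Autophagy encloses cytoplasm in a double membrane, the autophagosome, which then fuses with the lysosome. The ULK kinase complex starts the process, a phosphatidylinositol 3-kinase complex marks the site with the lipid PI3P, and proteins that bind PI3P or carry lipids extend the membrane. Linked conjugation pathways then attach ubiquitin-like proteins of the ATG8 family to the membrane, where receptors that bind both ATG8 proteins and cargo bring in proteins and organelles. The arrays measured transcripts and not the flow of material through autophagy.

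Values are on the log2 scale of the deposited table, and array medians lay between 4.85 and 4.98. Pearson's r over the deposited rows, which are not independent of each other, was 0.993 to 0.995 between arrays of a group and 0.969 to 0.973 across groups. The markers fixed for H1299 were the epithelial keratin genes KRT8 and KRT18 and the mesenchymal filament gene VIM. All 3 read high in both groups, 14.0 to 15.1 with PD 0332991 and 13.9 to 15.8 with DMSO. KRT8 rose by 0.79 (limma adjusted p = 9.10e-05), VIM fell by 0.57 (adjusted p = 0.000296) and KRT18 was not called. The 9 measured markers of blood, endothelial and fibroblast cells, of 10 fixed, read 3.69 to 4.87 with PD 0332991 and 3.36 to 4.98 with DMSO, and 1 of them, PECAM1, was called, with a change of 0.40. That call was lost under 5 of the 14 alternatives that tested this gene. Among them were the fits without PD 0332991 replicate 1 (adjusted p = 0.0939) or 3 (0.137) and without DMSO replicate 1 (0.102) or 2 (0.145). The proliferation genes MKI67, TOP2A and CCNA2 fell by 7.42, 5.37 and 6.76, so transcripts of proliferation differed between the groups. In a culture, a change in the share of cells in one state and a change in RNA per cell cannot be told apart. PD 0332991 replicate 2 and DMSO replicate 1 deviated from their group means together (r = 0.41 across genes). Without both of those arrays 17 members were called higher and 8 lower, where all 6 arrays gave 19 and 10.

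PD 0332991 changed 29 of the 41 autophagy genes by limma at an adjusted p under 0.05 over all genes, with 19 higher, 10 lower and 12 not called. Among all genes tested 38.1% were called, 19.6% higher and 18.5% lower. Calls depend on level, and all 41 members had a mean above the median of all deposited values. Among the 14383 genes above that level 56.7% were called, 29.0% higher and 27.7% lower, so the members' 70.7% lies nearer to that share than to the share over all genes. That level was 4.92, while the mean levels of the members began at 5.86 and had a median of 9.23. Over all genes tested the median was 5.87. The genes above the median level are therefore not matched to the members in level, and what remains of the level's effect was not tested. The median log2 change was 0.22 over the members and 0.00078 over all genes tested. With array weights the members' median was 0.14. Changes were small for the most part: 6 members rose and 2 fell by 1 log2 unit or more, and 9.95% of all genes tested, or 15.4% of the genes above the median level, were called with a change of that size. The groups were separate, with no overlap of their arrays, in 35 of the 41 members, beside 47.5% of all genes tested and 67.6% of the genes above the median level.

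**Figure D1:**
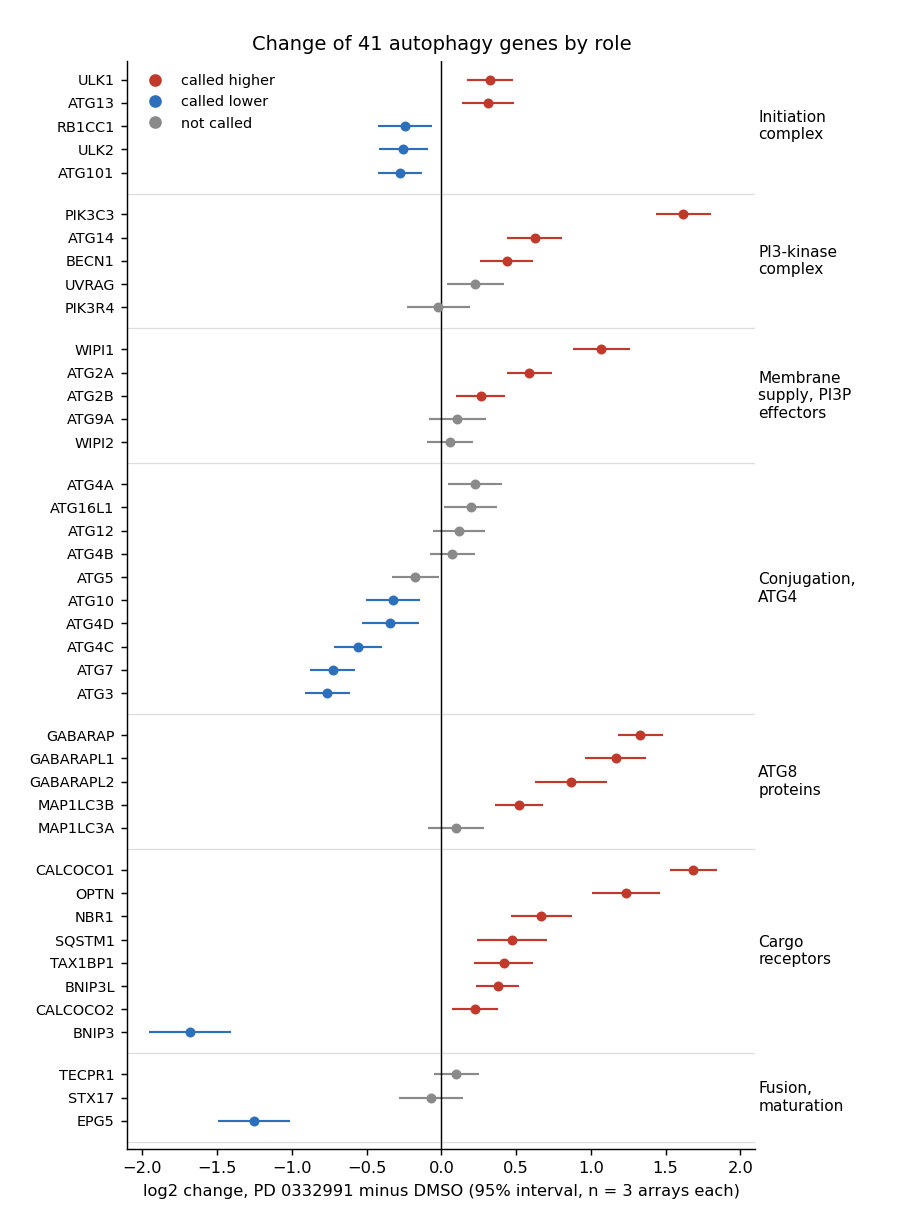
Log2 change (horizontal axis, PD 0332991 minus DMSO, deposited log2 scale) of each of the 41 autophagy genes, grouped by role, with points for the change and lines for the 95% interval from limma (n = 3 arrays each). The 5 ATG8 genes lie right of 0, up to 1.33 for GABARAP, and 6 of the 10 conjugation genes lie left of 0, down to -0.76 for ATG3.

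The direction of the calls differed by role. Among the genes above the median level 29.0% were called higher and 27.7% lower, and among all genes tested 19.6% and 18.5%. Of the 5 ATG8 genes 4 rose and none fell, with a median change of 0.87, and of the 8 cargo receptor genes 7 rose and 1 fell, with a median of 0.45. Of the 10 conjugation and ATG4 genes none rose and 5 fell, with a median of -0.25. The 5 initiation genes split into 2 that rose and 3 that fell. Both the phosphatidylinositol 3-kinase group and the group of membrane supply and PI3P effectors had 3 of 5 measured genes higher and none lower, and the fusion group had 1 of 3 lower. On the single PD 0332991 arrays, the median deviation of the ATG8 genes from their DMSO means was 0.74, 1.05 and 0.81, and that of the conjugation genes was -0.27, -0.19 and -0.27. On the DMSO arrays, which set the zero point, the medians of these 2 groups lay between -0.04 and 0.03. No test was made between roles, since the groups were formed with earlier results of these data known.

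**Figure D2:**
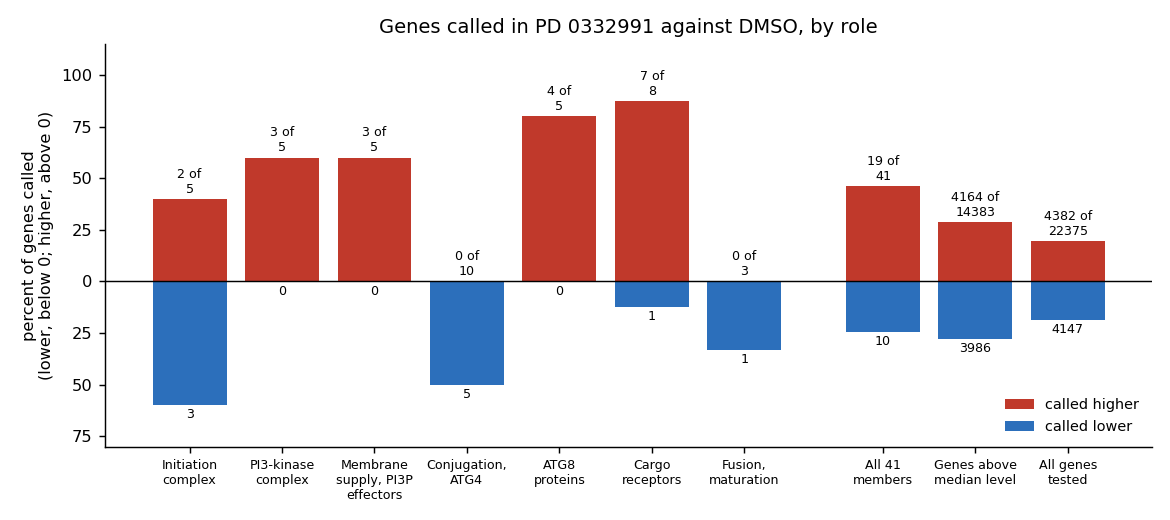
Percent of genes called (vertical axis) higher, above 0, and lower, below 0, with PD 0332991 against DMSO, for each role, for the 41 members, for genes above the median level and for all genes tested, with the number of genes printed at each bar. No conjugation gene was called higher, and 7 of 8 cargo receptor genes were.

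Promoter windows are shown for the 3 members that hold the letters CACGTG, as examples whose changes ran in both directions. CACGTG is the core bound by helix-loop-helix factors such as MYC, USF and TFEB, the last of which is known as an activator of lysosome and autophagy genes. The search took the 250 bases before each RefSeq gene start (GRCh38.p14) on both strands, and CACGTG reads the same on both. Of the 42 listed genes 34 had a RefSeq promoter, and 3 of these held the motif, a share close to the 7.73% of all 27305 genes with a promoter. The 3 were ATG3 and BNIP3, which fell, and ATG14, which rose. The longer palindrome TCACGTGA, which contains CACGTG, was in no member promoter and in 1.04% of all genes. Of the letters read by E2F factors, the partners of pRB, TTTCCCGC was in no member promoter and in 1.70% of all genes, and TTTGGCGC was in no member promoter and in 0.681%. The windows below are printed 5′ to 3′ on the strand of the gene, with CACGTG in capitals. The motif begins 18 bases before the start in ATG3 (chr3:112561963-112562212, minus strand), 134 bases before it in BNIP3 (chr10:131981924-131982173, minus strand) and 21 bases before it in ATG14 (chr14:55411831-55412080, minus strand).
ATG3: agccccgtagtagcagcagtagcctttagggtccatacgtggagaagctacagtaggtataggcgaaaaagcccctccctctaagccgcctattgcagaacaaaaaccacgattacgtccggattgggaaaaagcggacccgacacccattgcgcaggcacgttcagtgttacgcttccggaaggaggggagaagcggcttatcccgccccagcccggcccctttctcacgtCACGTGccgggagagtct
BNIP3: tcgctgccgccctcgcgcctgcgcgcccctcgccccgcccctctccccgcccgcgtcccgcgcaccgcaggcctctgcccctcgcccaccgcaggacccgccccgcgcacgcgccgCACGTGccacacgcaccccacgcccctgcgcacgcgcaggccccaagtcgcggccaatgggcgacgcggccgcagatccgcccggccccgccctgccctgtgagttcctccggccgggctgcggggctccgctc
ATG14: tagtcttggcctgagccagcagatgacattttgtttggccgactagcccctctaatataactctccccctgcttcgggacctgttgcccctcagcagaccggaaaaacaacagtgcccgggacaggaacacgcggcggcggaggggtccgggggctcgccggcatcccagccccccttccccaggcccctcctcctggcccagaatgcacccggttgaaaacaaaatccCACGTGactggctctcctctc
A match of letters is a description and does not show that a factor binds there.

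The ULK complex was mixed, with changes of at most 0.32 in size. ULK1, the kinase that starts autophagosome formation, read 6.51, 6.56 and 6.53 on the PD 0332991 arrays and 6.28, 6.18 and 6.17 on the DMSO arrays. It rose by 0.32 ± 0.07 (SE, n = 3 per group; limma adjusted p = 0.00490). ATG13, the regulatory subunit that links the kinase to its partners, rose by 0.31 ± 0.07 (adjusted p = 0.0104). The related kinase gene ULK2 went the other way, with 6.70, 6.79 and 6.73 under PD 0332991 and 7.03, 7.04 and 6.91 under DMSO, and fell by 0.25 ± 0.07 (adjusted p = 0.0215). ATG101, which binds and stabilises ATG13, read 8.14, 8.06 and 8.10 with PD 0332991 and 8.40, 8.36 and 8.36 with DMSO, and fell by 0.28 ± 0.06 (adjusted p = 0.00908). RB1CC1, the large scaffold of the complex also called FIP200, read 12.66, 12.82 and 12.63 with PD 0332991 and 12.96, 12.99 and 12.90 with DMSO. It fell by 0.24 ± 0.08 (adjusted p = 0.0378). In all 5 genes the arrays of the groups did not overlap, beside 47.5% of all genes tested and 67.6% of the genes above the median level. The ULK2 call was lost under 7 of the 15 alternatives, among them without PD 0332991 replicate 1 (adjusted p = 0.0736) or 3 (0.0695) and without DMSO replicate 1 (0.0597) or 2 (0.0914). The RB1CC1 call was lost under 8, among them without any single array except PD 0332991 replicate 2 (0.0523 to 0.135), while the ATG13 call was lost after centring each array on its median (0.0538) and the ATG101 call without PD 0332991 replicate 2 and DMSO replicate 1 together (0.0529).

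In the phosphatidylinositol 3-kinase complex the catalytic subunit had the largest change. PIK3C3, which makes PI3P, read 11.89, 11.96 and 11.87 in PD 0332991 cells and 10.16, 10.38 and 10.32 in DMSO cells. It rose by 1.62 ± 0.08 (SE, n = 3 per group; limma adjusted p = 1.85e-06), the 351st largest rise of the 22375 genes. ATG14, the subunit that directs the kinase to autophagosome formation and whose promoter window is printed above, rose by 0.62 ± 0.08, with 8.90 ± 0.09 (SD) under PD 0332991 and 8.28 ± 0.08 under DMSO (adjusted p = 0.000339). BECN1, the scaffold beclin 1, rose by 0.44 ± 0.08 (adjusted p = 0.00209). UVRAG, which takes the place of ATG14 in the endosomal form of the complex, had a change of 0.23 ± 0.08 (adjusted p = 0.0636; 0.0424 without DMSO replicate 2). PIK3R4, the regulatory subunit that anchors the kinase, had a change of -0.02 ± 0.09 (adjusted p = 0.909) with overlapping groups and a 95% interval from -0.23 to 0.19.

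Among the genes that supply membrane or read PI3P, WIPI1 moved most. WIPI1, a PI3P-binding propeller protein, read 10.87, 10.94 and 10.77 with PD 0332991 and 9.67, 9.87 and 9.84 with DMSO, and rose by 1.07 ± 0.08 (SE, n = 3 per group; limma adjusted p = 1.89e-05). WIPI2, the related protein that recruits the conjugation machinery, read 8.95 ± 0.06 (SD) with PD 0332991 and 8.89 ± 0.02 with DMSO, a change of 0.06 ± 0.07 (adjusted p = 0.595) with a 95% interval from -0.10 to 0.21. The lipid transfer genes ATG2A and ATG2B rose by 0.59 ± 0.07 (adjusted p = 0.000155) and 0.26 ± 0.07 (adjusted p = 0.0175). The ATG2B call was lost under 5 of the 15 alternatives (adjusted p up to 0.0886), among them without PD 0332991 replicate 1 (0.0535) or 2 (0.0512) and without DMSO replicate 3 (0.0541). ATG9A, the scramblase carried by vesicles to the growing membrane, had a change of 0.11 ± 0.08 (adjusted p = 0.406) with overlapping groups.

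The enzymes that attach ATG8 proteins to the membrane fell where they were called. ATG7, the E1-like enzyme that activates both ATG12 and the ATG8 proteins, read 6.52, 6.59 and 6.57 with PD 0332991 and 7.34, 7.28 and 7.25 with DMSO, and fell by 0.73 ± 0.07 (SE, n = 3 per group; limma adjusted p = 4.69e-05). ATG3, the E2-like enzyme for ATG8 proteins, read 8.83, 8.87 and 8.83 with PD 0332991 and 9.59, 9.57 and 9.66 with DMSO. It fell by 0.76 ± 0.06 (adjusted p = 3.26e-05). ATG10, the E2-like enzyme for ATG12, read 7.44, 7.50 and 7.48 with PD 0332991 and 7.92, 7.79 and 7.69 with DMSO, and fell by 0.33 ± 0.08 (adjusted p = 0.0105). The genes for all 3 activating and transfer enzymes were lower with PD 0332991. The genes of the complex that they build were not called: ATG12 had a change of 0.12 ± 0.07 (adjusted p = 0.285), ATG5 of -0.17 ± 0.07 (0.0803) and ATG16L1 of 0.20 ± 0.08 (0.0843).

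The ATG4 proteases, which trim new ATG8 proteins and release them from lipid, divided in pairs. ATG4C read 8.60, 8.52 and 8.46 with PD 0332991 and 9.05, 9.07 and 9.13 with DMSO, and fell by 0.56 ± 0.07 (SE, n = 3 per group; limma adjusted p = 0.000302). ATG4D read 6.91, 6.96 and 6.83 with PD 0332991 and 7.37, 7.21 and 7.15 with DMSO, and fell by 0.34 ± 0.08 (adjusted p = 0.0109). ATG4B, the protease with the broadest activity on ATG8 proteins, had a change of 0.07 ± 0.06 (adjusted p = 0.467), and ATG4A, which favours the GABARAP branch, one of 0.22 ± 0.08 (0.0562).

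The ATG8 genes of the member list, whose proteins are the substrates of these enzymes, rose apart from MAP1LC3A. GABARAP read 14.47, 14.49 and 14.41 with PD 0332991 and 13.09, 13.15 and 13.13 with DMSO, and rose by 1.33 ± 0.07 (SE, n = 3 per group; limma adjusted p = 1.70e-06). Its relative GABARAPL1 read 9.16, 9.30 and 9.10 with PD 0332991 and 8.14, 7.94 and 7.98 with DMSO. It rose by 1.17 ± 0.09 (adjusted p = 1.60e-05). GABARAPL2, also known as GATE-16, rose by 0.87 ± 0.10, with 12.31 ± 0.16 (SD) under PD 0332991 and 11.44 ± 0.13 under DMSO (adjusted p = 0.000228). The GABARAP branch, which acts late in autophagosome closure and fusion, had all 3 of its listed genes higher. In the LC3 branch, MAP1LC3B, whose protein LC3B is the usual marker of autophagosomes, rose by 0.52 ± 0.07 (adjusted p = 0.000432). MAP1LC3A read 5.79, 5.90 and 6.02 with PD 0332991 and 5.75, 5.87 and 5.80 with DMSO, a change of 0.10 ± 0.08 (adjusted p = 0.437). Its groups overlapped.

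Rows of near-identical relatives were also called, and the files do not say whether probes separate them. MAP1LC3B2, a near copy of MAP1LC3B, rose by 0.36 ± 0.11 (SE, n = 3 per group; limma adjusted p = 0.0349). That call was lost under 6 of the 15 alternatives (adjusted p up to 0.104), among them without PD 0332991 replicate 2 (0.0535) and without DMSO replicate 1 (0.0576), 2 (0.101) or 3 (0.0858). The GABARAPL1 copy GABARAPL3 rose by 0.58 ± 0.10 (adjusted p = 0.00189). How much signal crosses between such rows was not tested.

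**Figure D3:**
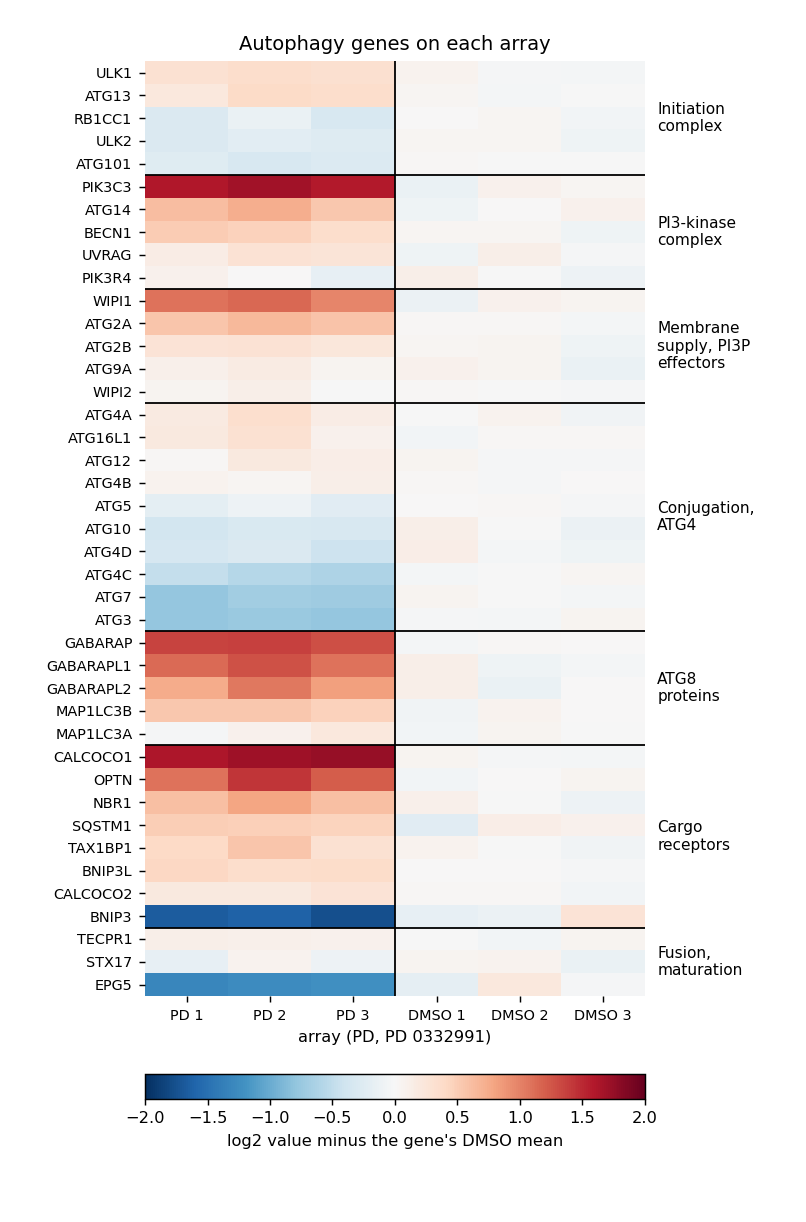
Deviation of each of the 41 genes from its own DMSO mean (colour, log2 units) on the 3 PD 0332991 arrays and the 3 DMSO arrays (columns), with genes in rows by role. ATG3 and ATG7 are lower on every PD 0332991 array, while GABARAP, GABARAPL1 and GABARAPL2 are higher on every one.

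All 8 cargo receptor genes were called, 7 of them higher, beside 56.7% called among the genes above the median level and 38.1% among all genes. CALCOCO1, a receptor for the endoplasmic reticulum, read 9.46, 9.54 and 9.58 with PD 0332991 and 7.89, 7.82 and 7.80 with DMSO, and rose by 1.69 ± 0.07 (SE, n = 3 per group; limma adjusted p = 6.88e-07). This was the largest rise of the 41 members and the 308th largest of the 22375 genes tested. OPTN, the ubiquitin-binding receptor optineurin that serves mitochondria and bacteria, read 9.65, 9.99 and 9.77 with PD 0332991 and 8.51, 8.58 and 8.62 with DMSO, and rose by 1.24 ± 0.10 (adjusted p = 2.12e-05). NBR1, a receptor for protein aggregates and peroxisomes, rose by 0.67 ± 0.09 (adjusted p = 0.000397). SQSTM1, the receptor of ubiquitinated proteins that is itself degraded by autophagy, rose by 0.47 ± 0.10, with 9.95 ± 0.02 (SD) under PD 0332991 and 9.48 ± 0.19 under DMSO (adjusted p = 0.00582). TAX1BP1, a receptor of aggregates and ferritin cargo, rose by 0.42 ± 0.09 (adjusted p = 0.00462). CALCOCO2, which encodes the bacterial and mitochondrial receptor NDP52, rose by 0.23 ± 0.07 (adjusted p = 0.0265), a call lost under 7 of the 15 alternatives (up to 0.106). These included leaving out PD 0332991 replicate 1 (0.0598) or 3 (0.0997) and DMSO replicate 2 (0.0692) or 3 (0.0764).

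The 2 receptors of the member list that are anchored in the outer mitochondrial membrane went in opposite directions. BNIP3, a hypoxia-inducible receptor for mitochondria, read 9.17, 9.21 and 9.07 with PD 0332991 and 10.67, 10.71 and 11.10 with DMSO. It fell by 1.68 ± 0.12 (SE, n = 3 per group; limma adjusted p = 1.22e-05), the deepest fall of the 41 members. Its relative BNIP3L, also called NIX and known for clearing mitochondria from red cell precursors, rose by 0.38 ± 0.06, with 12.10 ± 0.03 (SD) under PD 0332991 and 11.73 ± 0.03 under DMSO (adjusted p = 0.00163). The row of the pseudogene BNIP3P1 fell by 1.71 ± 0.10 (adjusted p = 5.43e-06), and whether its probes read BNIP3 transcripts was not tested.

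**Figure D4:**
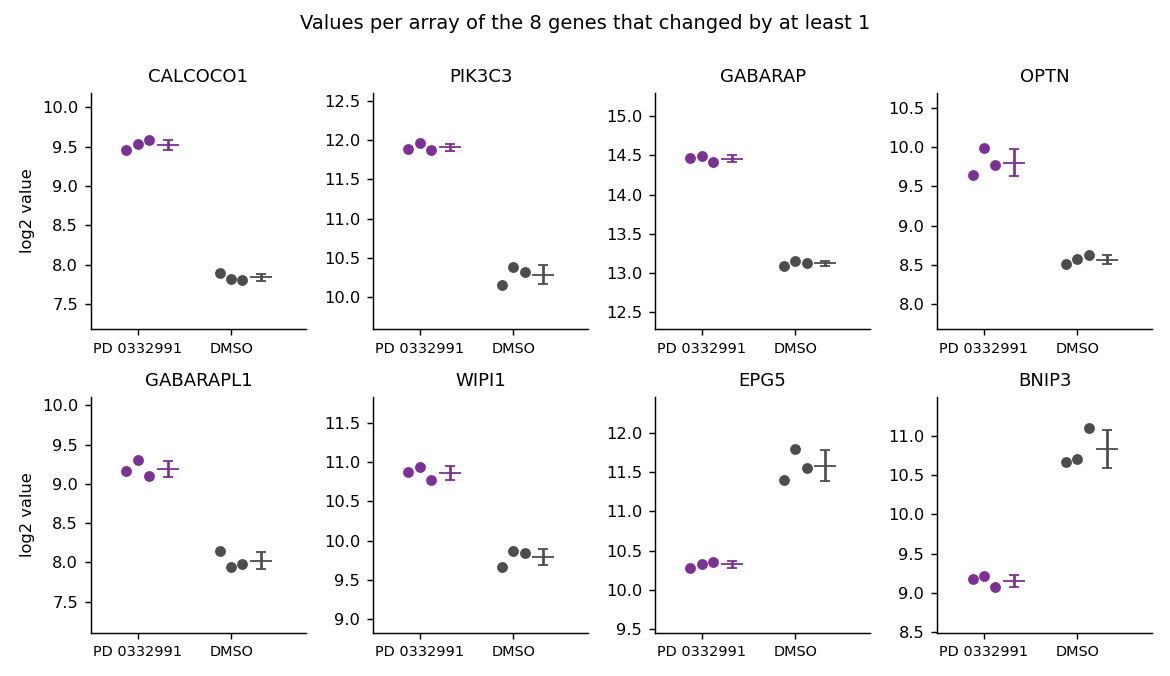
Log2 value (vertical axis, 3 units high in each panel) on the 3 PD 0332991 arrays, left, and the 3 DMSO arrays, right, for the 8 autophagy genes called with a change of at least 1, with means and SD beside the points. The genes were chosen by their call and size of change, so the separation of the groups follows from that choice. EPG5 and BNIP3 are lower with PD 0332991.

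Of the genes that join autophagosomes to lysosomes, EPG5 fell. EPG5, a tether that secures specific fusion with late endosomes and lysosomes, read 10.28, 10.33 and 10.36 with PD 0332991 and 11.40, 11.79 and 11.55 with DMSO, and fell by 1.26 ± 0.10 (SE, n = 3 per group; limma adjusted p = 2.85e-05). STX17, the syntaxin of the autophagosome membrane, had a change of -0.07 ± 0.09 (adjusted p = 0.658) with overlapping groups. TECPR1, which binds ATG5 on lysosomal membranes, had a change of 0.10 ± 0.07 (adjusted p = 0.304). Its groups did not overlap, and its 95% interval ran from -0.05 to 0.25.

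Related members were set against each other by the difference between their changes, computed within arrays. The 8 pairs were chosen with the values known, so the differences are given as a description, with no test. CALCOCO1 changed by 1.46 more than CALCOCO2, and WIPI1 changed by 1.01 more than WIPI2. The change of BNIP3 minus that of BNIP3L was -2.06. Here the mean of BNIP3 minus BNIP3L on the DMSO arrays was the zero point. Against it the pair lay at -2.13 to -1.97 on PD 0332991 arrays and -0.17 to 0.30 on DMSO arrays. For ATG4A against ATG4C the difference was 0.78, for ULK1 against ULK2 it was 0.58, and for GABARAP against GABARAPL2 it was 0.46. It was 0.42 for MAP1LC3B against MAP1LC3A and 0.33 for ATG2A against ATG2B.

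Other genes of the pathway, from 4 lists of 63 genes of which 58 were measured, were higher in 27 cases, lower in 5 and not called in 26. The 55.2% called was close to the 56.7% of genes above the median level and lay above the 38.1% of all genes. By direction, 29.0% of the genes above the median level were called higher and 27.7% lower, and 19.6% and 18.5% of all genes. By list, 72.7% of the further autophagosome genes, 64.7% of the further selective autophagy genes, 72.7% of the further fusion genes and 26.3% of the regulators were called, and no difference between these shares was tested. Of 11 measured further autophagosome genes 7 rose and 1 fell, with a median change of 0.36. TECPR2, a protein of autophagosome and secretory trafficking, read 10.10 ± 0.02 (SD) with PD 0332991 and 8.66 ± 0.10 with DMSO and rose by 1.44 ± 0.07 (SE, n = 3 per group; limma adjusted p = 2.26e-06). ZFYVE1, whose PI3P-binding product DFCP1 marks the sites where autophagosomes form, rose by 1.32 ± 0.07, and NRBF2, a partner of the ATG14 form of the lipid kinase complex, rose by 0.93 ± 0.07. The 1 gene of this list that fell, WDR45B, named after its value was seen, changed by -0.47 ± 0.08 (adjusted p = 0.00152). Of 17 measured further genes of selective autophagy 9 rose and 2 fell, with a median of 0.31. The ferritin receptor gene NCOA4 rose by 1.18 ± 0.08 and SEC62, a translocon component that is also a receptor for the endoplasmic reticulum, rose by 1.13 ± 0.10. NUFIP1, a nuclear RNA-binding protein also described as a ribosome receptor, fell by 1.05 ± 0.07.

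Of 11 measured further fusion genes 6 rose and 2 fell, with a median of 0.47. The leading ones were VPS41, VPS11 and VPS18, subunits of the HOPS tethering complex that brings lysosomes to autophagosomes, which rose by 1.43 ± 0.07, 1.39 ± 0.07 and 1.21 ± 0.07 (SE, n = 3 per group; limma adjusted p at most 4.30e-06). Another HOPS subunit gene, VPS33A, named after its value was seen, fell by 0.43 ± 0.07 (adjusted p = 0.00190). The 19 regulators of autophagy had 5 genes higher, none lower and 14 not called, with a median of 0.10. Their 26.3% called lay between the 19.6% of all genes and the 29.0% of genes above the median level that were called higher. PRKAB2, a regulatory subunit of the energy-sensing kinase AMPK, rose by 0.96 ± 0.07, and TSC2 and TSC1, which restrain the growth kinase mTORC1, rose by 0.59 ± 0.08 and 0.44 ± 0.07. The transcription factor gene TFEB, named after its value was seen, read 5.03 ± 0.11 (SD) with PD 0332991 and 4.84 ± 0.05 with DMSO, near the array medians, and was not called (adjusted p = 0.107).

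**Figure D5:**
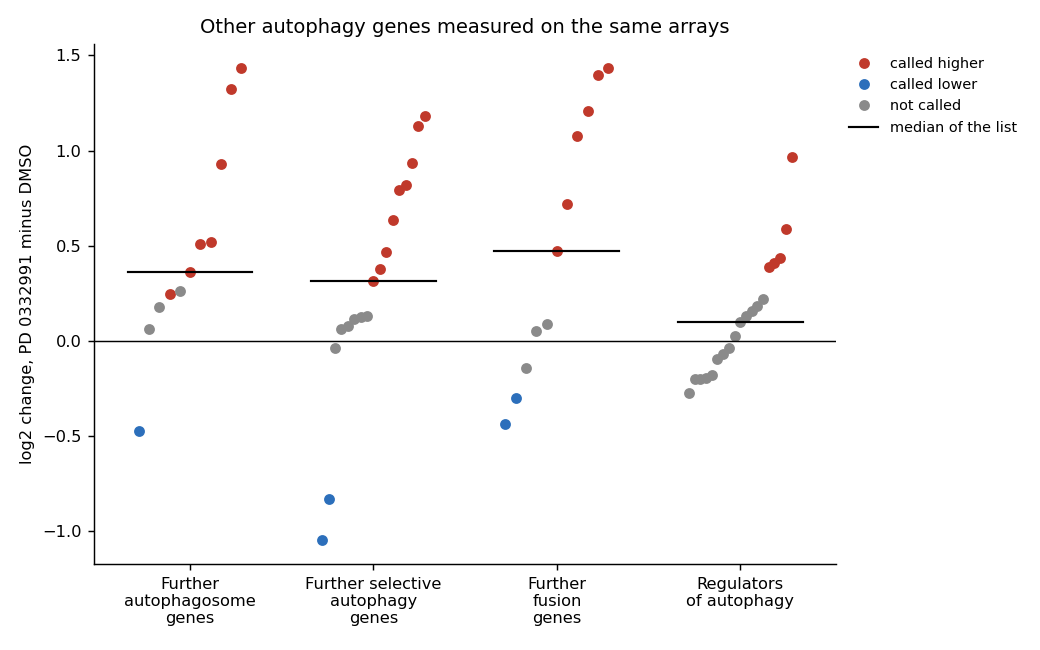
Log2 change (vertical axis, PD 0332991 minus DMSO) of the 58 measured genes of the 4 further lists, with a point per gene coloured by its call and a line at each list's median. The largest rises, 1.44 for TECPR2 and 1.43 for VPS41, lie in the autophagosome and fusion lists, and the regulators lie between -0.28 and 0.96.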

How the data were processed

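Total RNA of 6 samples was measured on Affymetrix arrays, 3 per group. Log2 values were deposited by the authors in 1 table of 65535 rows (transcript clusters), made with Affymetrix Expression Console per the submitters' processing notes. Neither its version nor its normalization and probe summary is stated there or in the other sources used here. The log2 base was read from the values, 1.87 to 19.9, and how this scale relates to scanner brightness is unknown, so changes are differences on the deposited scale. The labels name 2 labelling chemistries, a WT Plus kit and a NuGEN kit. It holds neither detection flags nor scan dates, and the number of arrays limits precision (SE of a member's change, 0.063 to 0.12).

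The platform annotation gave 1 gene symbol to 22685 rows, several to 1385 and none to 41465. For 296 genes with several rows, the row with the highest mean stood for the gene, leaving 22375. Gene identifiers matched 20232 of them to RefSeq (GRCh38.p14), and no symbol changed. The groups were compared as PD 0332991 minus DMSO on the values as deposited, in R 4.3.3 with limma 3.58.1 (lmFit, eBayes) and Benjamini-Hochberg adjustment over all genes; genes with an adjusted p under 0.05 were called. The fit was also run on simulated data with independent noise and few changed genes. In the deposited data 38.1% of genes were called, so that run does not measure the error of these calls. Alternatives were 3 further scalings, a filter on dim genes, averaging a gene's rows, a trended robust fit, array weights, a replicate block, each array left out and 2 arrays left out.

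The members, roles, lists, motifs and pairs were chosen with earlier results of these data known. Full array values are given for members that were called lower, that changed by at least 1 or that led their role, and for MAP1LC3A. Up to 3 called genes are named from each further list, and MAP1LC3B2, MAP1LC3C, WDR45B, VPS33A and TFEB are named outside that rule. The labels give replicate numbers but no shared culture, so the numbers were not taken as pairs. Same-numbered arrays correlated at -0.33, -0.15 and 0.10 in their deviations from group means. With 3 arrays per group these deviations constrain each other, so the correlations cannot settle whether cultures were shared.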

Additional observations from a re-analysis of the deposited data

How the results depend on the processing

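Over the 15 alternatives, members called higher numbered 16 to 22 and members called lower 8 to 11, beside 19 and 10, and 7483 to 10296 of all genes were called. Of the 29 called members 23 (16 higher, 7 lower) kept their call and direction under every alternative. The other 6 (ULK2, ATG13, ATG101, RB1CC1, ATG2B and CALCOCO2) lost it under at least 1, and 5 uncalled members (UVRAG, ATG5, ATG12, ATG16L1 and ATG4A) gained one under at least 1. The members' median change, 0.22, was 0.14 with array weights, 0.15 without PD 0332991 replicate 2 and DMSO replicate 1 together, and 0.17 to 0.24 with 1 array left out. Only PIK3R4, which was not called in any setting, changed sign: its change was 0.020 after quantile normalization, 0.019 without the same 2 arrays, and -0.072 to 0.048 with 1 array left out. The cause of these shifts was not tested. With the replicate block 18 members were higher, 8 lower and 7708 of all genes called; no label ties equal numbers to a pair. Changes of MAP1LC3A, MAP1LC3C and TFEB rest on low values, and without detection flags their distance from background is unknown. MAP1LC3C read 5.63 ± 0.03 (SD) with PD 0332991 and 5.37 ± 0.24 with DMSO and was not called (limma adjusted p = 0.127). The caution also covers BNIP3P1, at 5.22 with PD 0332991. Some other members were not far above MAP1LC3A, such as TECPR1 (6.23 with PD 0332991, 6.13 with DMSO) and ULK1 (6.54 and 6.21).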
